A study of Homo sapiens with 9 samples.

Results

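This account covers 10 genes, taken by symbol from the 40332 rows of the count table. They are the transcription factors and cofactor GATA2, GATA3, CDX2, TFAP2A, TFAP2C and VGLL1, and the keratins KRT7, KRT8, KRT18 and KRT19, all used as markers of trophectoderm. All libraries were made from wild-type cells of H1, a long-established human pluripotent line derived from an embryo. The first group of 3 libraries grew in PXGL, which sustains naive human pluripotency through LIF and blockers of the kinases MEK and protein kinase C and of tankyrase. The second group of 3 was placed in N2B27, a serum-free basal medium without those additions. The third group of 3 was in N2B27 with 5 µM EPZ-6438 for 3 days. EPZ-6438 (tazemetostat) inhibits EZH2, the enzyme of Polycomb repressive complex 2 (PRC2) that methylates lysine 27 of histone H3. No source used here states how long the N2B27 group without inhibitor spent in that medium. Medium and time away from PXGL therefore cannot be told apart. Nor can EPZ-6438 and time in N2B27 be told apart between the groups with and without inhibitor. Labels number the replicates without saying whether they were separate cultures, so each p-value reflects library-to-library spread that may be purely technical. The series text speaks of triplicate samples and also of duplicate sequencing, while 3 libraries per group were analysed.

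Trophectoderm is the outer epithelium of the blastocyst and the source of the placental trophoblast. Human naive embryonic stem cells can be turned into trophoblast in culture more readily than primed cells, and GATA2, GATA3, TFAP2A and TFAP2C are regulators shared by trophoblast programmes. Keratins pair an acidic with a basic chain to build the filaments of such epithelia: KRT8 (basic) pairs with KRT18 (acidic), KRT7 is another basic chain and KRT19 another acidic one. PRC2 is known to hold many developmental transcription factor genes in a repressed state, most often where the start of the gene is rich in CpG.

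PXGL libraries held 17499688 to 18358530 expected counts, N2B27 libraries 14482105 to 15295208, and those with EPZ-6438 14719626 to 16479602. Levels are given as CPM (a gene's counts relative to its library's total) after TMM scaling, which adjusts each library for its composition, and as mean ± SD with n = 3 unless each library is listed. The core pluripotency factors that mark the labelled cell type were present in every group: POU5F1 averaged 1319.7 CPM in PXGL, 1426 CPM in N2B27 and 1178 CPM with EPZ-6438. NANOG averaged 421, 455 and 353 CPM in the same order, and SOX2 133, 116 and 63.6 CPM. Ribosomal protein genes took 7.22% of the counts of PXGL replicate 1, against 5.92% and 5.51% in its sister libraries, and it stood apart from both. It was the highest PXGL library for KRT8, KRT18 and KRT19, and its part in those values is given where leaving it out moved a call.

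The promoter windows of GATA2, GATA3 and TFAP2A are printed because CpG content is the sequence feature named above, and these factors were compared with and without the inhibitor. Each is the 250 bases before the first RefSeq start on GRCh38.p14, read 5′ to 3′ on the strand of the gene, with CG in capitals. The windows are chr3:128493202-128493451 on the minus strand for GATA2, chr10:8045083-8045332 on the plus strand for GATA3 and chr6:10419660-10419909 on the minus strand for TFAP2A.
GATA2: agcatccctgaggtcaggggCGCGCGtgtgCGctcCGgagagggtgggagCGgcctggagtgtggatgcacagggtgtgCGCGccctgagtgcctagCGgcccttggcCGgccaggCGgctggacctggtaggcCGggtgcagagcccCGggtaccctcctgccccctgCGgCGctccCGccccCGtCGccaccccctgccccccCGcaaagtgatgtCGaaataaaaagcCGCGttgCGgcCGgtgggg
GATA3: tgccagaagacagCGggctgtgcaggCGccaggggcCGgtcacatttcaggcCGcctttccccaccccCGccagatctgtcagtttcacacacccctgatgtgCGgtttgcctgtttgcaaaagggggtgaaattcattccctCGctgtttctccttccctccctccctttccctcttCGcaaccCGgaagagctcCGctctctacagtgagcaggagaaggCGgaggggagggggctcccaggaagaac
TFAP2A: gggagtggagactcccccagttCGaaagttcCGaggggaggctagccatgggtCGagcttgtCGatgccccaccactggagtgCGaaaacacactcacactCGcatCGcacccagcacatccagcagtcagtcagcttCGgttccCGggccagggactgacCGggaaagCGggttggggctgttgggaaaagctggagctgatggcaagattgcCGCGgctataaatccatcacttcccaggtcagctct

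The GATA2 window held 24 CpG, and 21.6% of the 35116 RefSeq windows of this length held more. The TFAP2A window held 13 CpG, a number exceeded by 44.8% of windows, and the first GATA3 window held 11, exceeded by 48.5%, where the median over all windows is 11. GATA3 has 5 further RefSeq windows at later starts, with 16, 15, 30, 26 and 4 CpG, and the richest of them is exceeded by 10.9% of windows. GATA2 and TFAP2A have 1 further window each, with 18 and 15 CpG. CDX2 had 10 CpG in its only window, which lies 1824 bases from the GENCODE 29 start of the gene and wholly within annotated exons. VGLL1 had 3 CpG in a window that overlaps an annotated exon by 63 bases. The only KRT8 window held 1 CpG, but it lies 23485 bases from the GENCODE start of KRT8 and so does not describe that start. Both strands were searched for the letters AGATAA, GCCNNNGGC and GGAATG, read as GATA, TFAP2 and TEAD motifs, which occur in 9.17%, 19.8% and 11.9% of all windows. The printed GATA2 window held GCCNNNGGC in 1 place. The printed GATA3 window held both GCCNNNGGC and GGAATG in 1 place each, and the printed TFAP2A window held no match. CDX2 held AGATAA in 1 place and VGLL1 held GGAATG in 1 place. Of the further windows, that of GATA2 held GCCNNNGGC in 2 places. The GATA3 windows with 30 and 26 CpG held it in 1 place each. RefSeq windows were matched for 6 of the 10 genes. These matches describe letters only, and no binding or methylation measurement was used here.

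With EPZ-6438 in N2B27 the DNA-binding factors GATA3, CDX2 and TFAP2A rose from low levels, the abundant keratins KRT8 and KRT18 rose by 1.32-fold and 1.20-fold, and TFAP2C, the most abundant of the 6 regulators, did not pass the test. In all, 5 of the 9 tested genes rose and 0 fell at an adjusted p under 0.05 (edgeR quasi-likelihood test, Benjamini-Hochberg over 15179 genes). Over all tested genes, 24.7% passed, with 14.2% higher and 10.6% lower. These were 3752 genes, and without PXGL replicate 1, which is in neither group but enters the shared estimate of the spread, 5702 genes and 6 of the 10 described here passed. The 9 genes had a median log2 fold change of 0.43, against 0.01 over all genes tested. CDX2, among the 5 that rose, passed the low-count filter through the EPZ-6438 group alone. A difference was thus built into its being tested and counted. TFAP2A, also among the 5, passed the filter with 0 of 3 N2B27 libraries above the limit. On leaving PXGL for N2B27, 3 of the 9 rose and 4 fell, beside 27.3% of all genes higher and 28.7% lower, which is 56.0% in all. Between N2B27 with EPZ-6438 and PXGL, 6 rose and 1 fell, beside 28.1% higher and 28.0% lower, or 56.1% in all. The 3 comparisons were drawn from the same 9 libraries, and any 2 of them share a group, so they are not independent of each other. In bulk RNA, fewer cells of a type and less RNA per cell cannot be told apart.

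**Figure D1:**
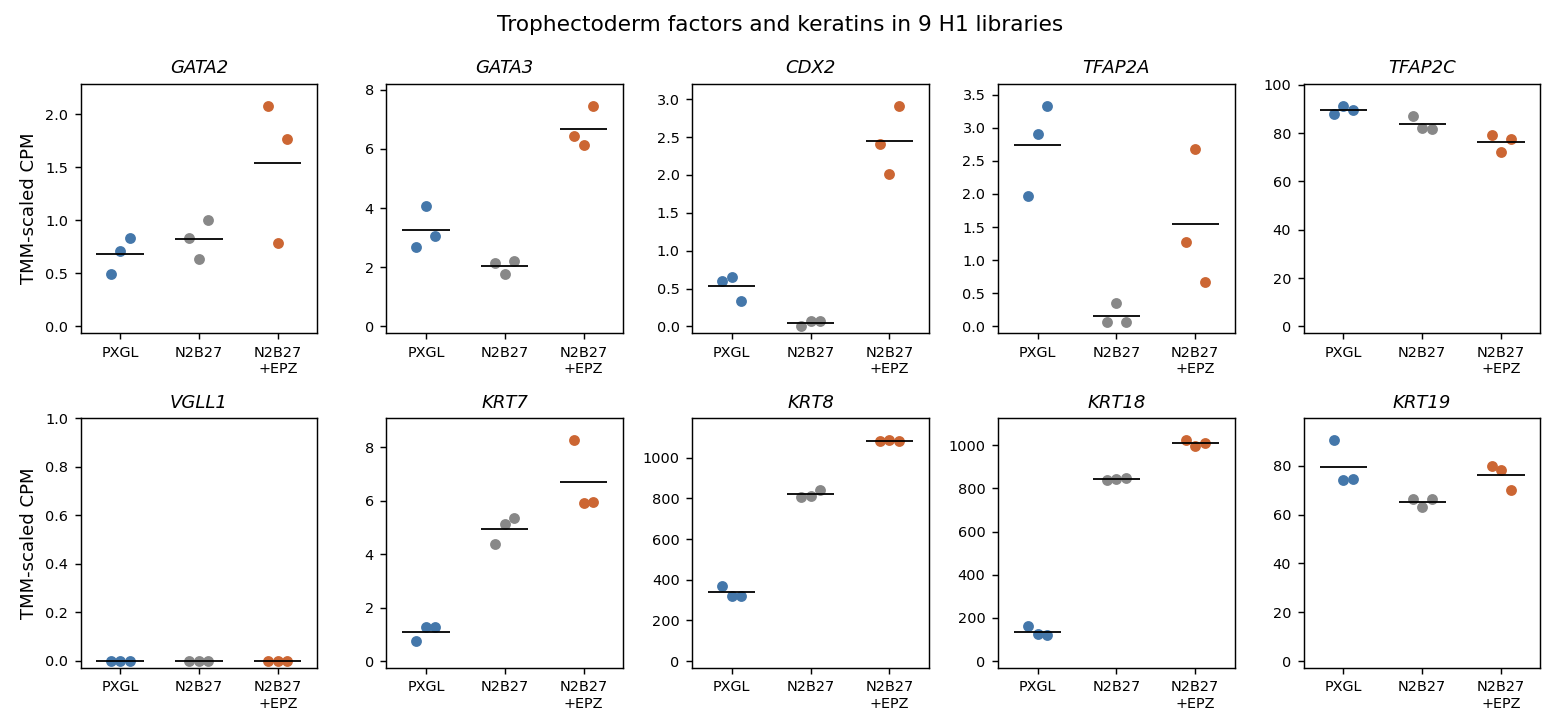
Each panel plots 1 gene, with TMM-scaled CPM on a linear axis from near 0, 1 point per library and a bar at the mean of the 3 libraries of each group. GATA3 and CDX2 were highest in all 3 EPZ-6438 libraries, TFAP2A was lowest in N2B27 alone, KRT8 and KRT18 stepped up from PXGL to N2B27, and VGLL1 was at 0 throughout.

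GATA3, on chromosome 10 (GRCh38, 8045378 to 8075203, plus strand), encodes a zinc finger factor that marks trophectoderm from its earliest stages. Its levels were 2.69, 4.05 and 3.05 CPM in PXGL, 2.16, 1.76 and 2.20 CPM in N2B27, and 6.44, 6.14 and 7.46 CPM with EPZ-6438. All 3 EPZ-6438 libraries lay above the other 6. The inhibitor group was 3.26-fold above N2B27 (log2 fold change 1.71, SE 0.23, edgeR adjusted p = 2.98e-05) and 2.04-fold above PXGL (log2 fold change 1.03, SE 0.21, edgeR adjusted p = 0.000484). GATA3 fell 1.60-fold from PXGL to N2B27 (log2 fold change -0.68, SE 0.24, edgeR adjusted p = 0.0219). That fall ended without PXGL replicate 2 (edgeR adjusted p = 0.12), without N2B27 replicate 2 (0.0785), with only the 2 groups in the fit (0.0522) and in a test against a 1.5-fold change (0.484), which is also the highest of its alternatives, the lowest being 0.00885.

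GATA2, on chromosome 3 (128479427 to 128493185, minus strand), encodes a GATA factor of trophoblast and also of blood and endothelium. It measured 0.494, 0.712 and 0.833 CPM in PXGL, 0.836, 0.633 and 1.0003 CPM in N2B27, and 2.08, 0.791 and 1.76 CPM with EPZ-6438. Replicate 2 of the inhibitor group lay among the other groups' libraries, so the groups overlapped. Against N2B27 the log2 difference was 0.89 (SE 0.45, edgeR adjusted p = 0.162), which did not pass. GATA2 rose 2.25-fold over PXGL with EPZ-6438 (log2 fold change 1.17, SE 0.44, edgeR adjusted p = 0.0337). Without PXGL replicate 1 (edgeR adjusted p = 0.0968), PXGL replicate 2 (0.0694), EPZ-6438 replicate 1 (0.151) or EPZ-6438 replicate 3 (0.0979) that call was lost, and over its alternatives the adjusted p ran from 0.00974 to 0.174. Between PXGL and N2B27 the log2 difference was 0.28 (SE 0.48, edgeR adjusted p = 0.641).

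CDX2, on chromosome 13 (27962137 to 27971139, minus strand), is a homeobox factor of trophectoderm and, later, of hindgut and posterior mesoderm. It measured 0.603, 0.657 and 0.333 CPM in PXGL, 0, 0.0703 and 0.0667 CPM in N2B27, and 2.42, 2.01 and 2.915 CPM with EPZ-6438. The 3 groups did not overlap, and N2B27 rested on 2 counts in all, against 29 in PXGL and 112 with EPZ-6438. By counts, the inhibitor group was 52.9 times N2B27, with an exact 95% interval of 14.3 to 443 that covers counting error only, and the gene rose (edgeR adjusted p = 8.02e-06). The N2B27 level was 0.0862 times that of PXGL (interval 0.00997 to 0.341), and the gene fell there (edgeR adjusted p = 0.00163). CDX2 was 4.54-fold higher with EPZ-6438 than in PXGL (log2 fold change 2.18, SE 0.42, edgeR adjusted p = 0.000302). It passed the low-count filter through the EPZ-6438 group alone, where all 3 libraries were above the limit against 1 in PXGL and 0 in N2B27, so a difference was built into its being tested.

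TFAP2A, on chromosome 6 (10393186 to 10419659, minus strand), encodes an AP-2 factor of trophoblast, surface ectoderm and neural crest. It measured 1.97, 2.90 and 3.33 CPM in PXGL, 0.0696, 0.352 and 0.0667 CPM in N2B27, and 1.27, 2.68 and 0.678 CPM with EPZ-6438. N2B27 lay below both other groups in every library, on 7 counts in all against 149 and 73, while PXGL and EPZ-6438 overlapped. TFAP2A passed the low-count filter through those 2 groups, with 0 of 3 N2B27 libraries above the limit. TFAP2A fell 16.3-fold from PXGL to N2B27 (log2 fold change -4.02, SE 0.63, edgeR adjusted p = 3.98e-05). It rose 9.29-fold with EPZ-6438 (log2 fold change 3.22, SE 0.67, edgeR adjusted p = 0.00184). That log2 fold change was 4.37 without N2B27 replicate 2 (edgeR adjusted p = 0.00258) and 2.55 without EPZ-6438 replicate 2 (0.0167), and its adjusted p ran from 1.5e-05 to 0.0167 over all alternatives. The fall from PXGL had a log2 fold change of -5.18 without N2B27 replicate 2 (edgeR adjusted p = 0.000108, range over alternatives 3.94e-09 to 0.000664).

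Between EPZ-6438 and PXGL the log2 difference of TFAP2A was -0.81 (SE 0.44, edgeR adjusted p = 0.127) and did not pass. It passed without PXGL replicate 1 (log2 fold change -0.995, edgeR adjusted p = 0.041) and without EPZ-6438 replicate 2 (-1.48, 0.0183), and over its alternatives the adjusted p ran from 0.0183 to 0.501. The antisense genes TFAP2A-AS1 and TFAP2A-AS2 overlap TFAP2A by 438 and 941 exonic bases. No source used here says whether the counting was stranded, so reads in the overlaps may come from either gene. TFAP2A-AS1 had 1 count in PXGL and 0 in the other groups, and TFAP2A-AS2 had 89, 55 and 91 counts in PXGL, N2B27 and EPZ-6438.

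TFAP2C, on chromosome 20 (56629302 to 56639283, plus strand), encodes an AP-2 factor that is active in trophoblast, in naive pluripotent cells and in primordial germ cells. It measured 87.9, 91.3 and 89.4 CPM in PXGL, 87.2, 82.3 and 81.9 CPM in N2B27, and 79.4, 72.2 and 77.6 CPM with EPZ-6438. The groups stepped down in that order without overlapping, by small amounts. Only the difference between EPZ-6438 and PXGL passed, a fall of 1.17-fold (log2 fold change -0.23, SE 0.07, edgeR adjusted p = 0.00719), and it did not pass a test against a 1.5-fold change (adjusted p = 1, range over alternatives 0.000473 to 1). Against N2B27 the inhibitor's log2 difference was -0.13 (SE 0.07, edgeR adjusted p = 0.159), and from PXGL to N2B27 it was -0.10 (SE 0.07, edgeR adjusted p = 0.23).

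VGLL1, on the X chromosome (136532152 to 136556807, plus strand), encodes a TEAD cofactor of trophoblast. It had 0 counts in all 9 libraries and was not tested. A floor of 3 counts over each group allows a level of up to 0.0551 CPM in PXGL, 0.0688 CPM in N2B27 and 0.0651 CPM with EPZ-6438, for counting error only.

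**Figure D2:**
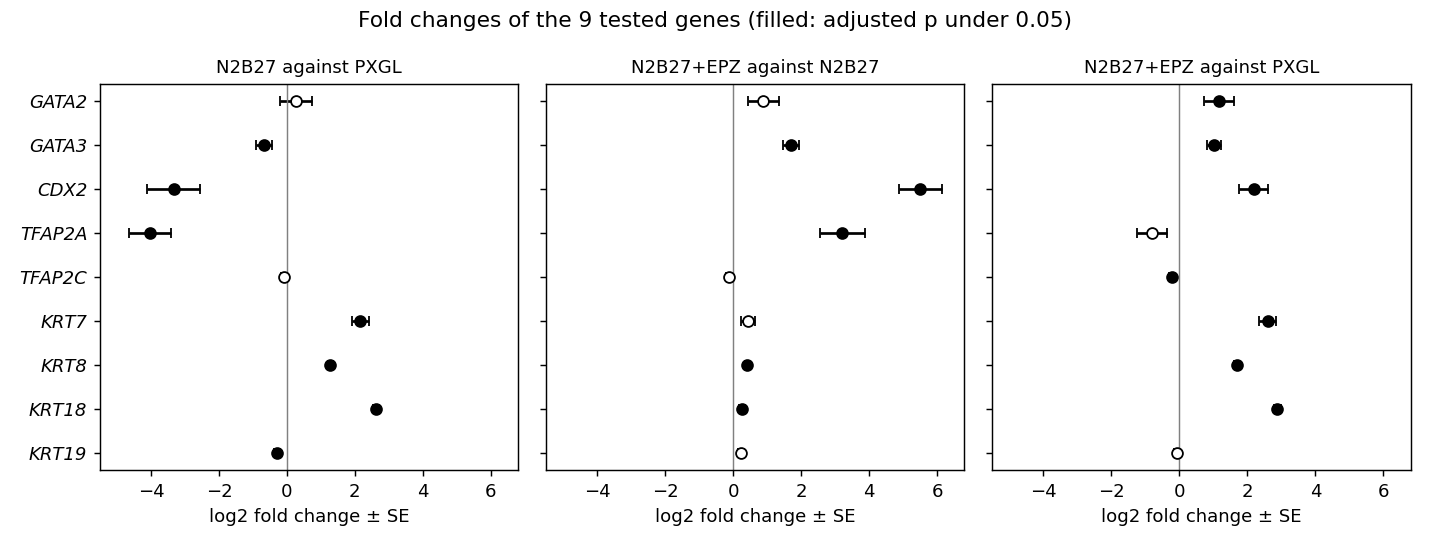
Log2 fold changes of the 9 tested genes in the 3 comparisons, with bars of 1 SE and filled points where the adjusted p was under 0.05. CDX2 and TFAP2A had the largest positive values with EPZ-6438 against N2B27 and the most negative from PXGL to N2B27, and KRT7, KRT8 and KRT18 were positive from PXGL to N2B27.

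KRT7, KRT8 and KRT18 followed another course, with a larger step on leaving PXGL than with the inhibitor. KRT8, on chromosome 12 (52897187 to 52949954, minus strand), measured 369.6, 322 and 321 CPM in PXGL, 805, 811 and 840.5 CPM in N2B27, and 1081, 1084 and 1080.2 CPM with EPZ-6438. The groups did not overlap. KRT8 rose 2.43-fold from PXGL to N2B27 (log2 fold change 1.28, SE 0.07, edgeR adjusted p = 6.57e-11). With EPZ-6438 it was 1.32-fold higher again (log2 fold change 0.40, SE 0.06, edgeR adjusted p = 0.000199), which did not pass a test against a 1.5-fold change (adjusted p = 1, range over alternatives 9.81e-19 to 1). Against PXGL the inhibitor group was 3.21-fold higher (log2 fold change 1.68, SE 0.07, edgeR adjusted p = 2.49e-12).

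KRT18, the usual partner of KRT8, lies beside it on chromosome 12 (52948871 to 52952901, plus strand). It measured 164, 124 and 122 CPM in PXGL, 837, 842 and 847 CPM in N2B27, and 1022, 995 and 1012 CPM with EPZ-6438. Each group again held its own range. The rise from PXGL to N2B27 was 6.15-fold (log2 fold change 2.62, SE 0.09, edgeR adjusted p = 7.87e-13). EPZ-6438 libraries were 1.20-fold above N2B27 (log2 fold change 0.26, SE 0.09, edgeR adjusted p = 0.0359). That small rise was lost when any 1 of the 6 libraries compared was left out (edgeR adjusted p between 0.0857 and 0.112) and against a 1.5-fold change (adjusted p = 1), with a lowest value over alternatives of 1.01e-11. Against PXGL the inhibitor group stood 7.38-fold higher (log2 fold change 2.88, SE 0.09, edgeR adjusted p = 2.76e-13).

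The balance of the pair differed between the groups of libraries. KRT18 counts per KRT8 count were 0.444, 0.385 and 0.382 in PXGL, 1.04, 1.04 and 1.01 in N2B27, and 0.946, 0.918 and 0.937 with EPZ-6438. The ratio was thus lowest in every PXGL library and highest in every N2B27 library. An exact two-sided permutation test of each difference gave p = 0.1, the smallest that 3 against 3 libraries allow, so the design cannot reach 0.05. The 2 genes overlap on opposite strands over 525 exonic bases, 7.63% of KRT8 exons and 16.3% of KRT18 exons, and without known strand use those reads cannot be told apart. Processed pseudogenes of both are also in the table, with summed counts of 2.29%, 1.13% and 1.07% of KRT8 and 0.630%, 0.166% and 0.144% of KRT18 in PXGL, N2B27 and EPZ-6438. Adding those counts to the parent genes changed no call of KRT8 or KRT18.

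KRT7, also on chromosome 12 (52232520 to 52252186, plus strand), is a basic keratin widely used as a trophoblast marker. It measured 0.768, 1.26 and 1.28 CPM in PXGL, 4.39, 5.13 and 5.33 CPM in N2B27, and 8.25, 5.90 and 5.97 CPM with EPZ-6438. Every EPZ-6438 library was above every N2B27 library, with replicate 1 well above the rest. KRT7 rose 4.47-fold from PXGL to N2B27 (log2 fold change 2.16, SE 0.26, edgeR adjusted p = 2.16e-06) and was 6.05-fold above PXGL with the inhibitor (log2 fold change 2.60, SE 0.25, edgeR adjusted p = 1.88e-07). The inhibitor's log2 difference from N2B27 was 0.43 (SE 0.21, edgeR adjusted p = 0.153) and did not pass. Its antisense gene KRT7-AS, which shares 282 exonic bases with it, had 0 counts in PXGL and N2B27 and 5 with EPZ-6438.

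KRT19, on chromosome 17 (41523617 to 41528308, minus strand), is an acidic keratin of simple epithelia. It measured 90.4, 74.1 and 74.4 CPM in PXGL, 66.2, 63.0 and 66.5 CPM in N2B27, and 79.8, 78.2 and 70.2 CPM with EPZ-6438. N2B27 was the lowest group in every library, and the other 2 groups overlapped. KRT19 fell 1.22-fold from PXGL to N2B27 (log2 fold change -0.29, SE 0.08, edgeR adjusted p = 0.0082), which did not pass a test against a 1.5-fold change (adjusted p = 1, range over alternatives 0.00371 to 1). With EPZ-6438 against N2B27 the log2 difference of 0.22 (SE 0.09, edgeR adjusted p = 0.0681) did not pass. It passed without PXGL replicate 1 (edgeR adjusted p = 0.00225) and with only the 2 groups fitted (0.00227), with a range of 0.00225 to 1 over alternatives. Against PXGL the difference was -0.07 (SE 0.08, edgeR adjusted p = 0.527).

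Of the 55 keratin genes in the table, 18 had a count and 6 passed the filter. With EPZ-6438 against N2B27, 2 of these 6 rose (KRT8 and KRT18) and 0 fell, beside 14.2% of all genes higher and 10.6% lower. From PXGL to N2B27 4 rose and 1 fell, beside 27.3% higher and 28.7% lower. The fourth to rise was KRT15, an acidic keratin, with 5, 27 and 39 counts in PXGL, N2B27 and EPZ-6438 (6.28-fold from PXGL to N2B27, edgeR adjusted p = 0.0124). With so few PXGL counts it could pass the filter only through the N2B27 and EPZ-6438 groups, so that difference was built into its being tested. The sixth, KRT10, a keratin of differentiating epidermis, averaged 10.8 ± 1.77 CPM in PXGL, 9.22 ± 0.217 in N2B27 and 10.1 ± 2.28 with EPZ-6438, and passed in none of the comparisons. KRT5 and KRT14, the pair of stratified epithelia, had 0 counts throughout. All keratin genes together took 0.0544% to 0.0634% of a PXGL library's counts, against 0.168% to 0.174% for N2B27 and 0.217% to 0.222% for EPZ-6438. KRT8 and KRT18 supplied 83.7% to 83.9% of those in PXGL, and 95.3% to 95.5% without or 95.4% to 96.0% with EPZ-6438 in N2B27. KRT19 supplied 14.0% to 14.2% in PXGL, but 3.64% to 3.84% without and 3.22% to 3.62% with EPZ-6438 in N2B27. The basic and acidic partners KRT8 and KRT18 thus made up nearly all keratin counts once the cells had left PXGL.

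**Figure D3:**
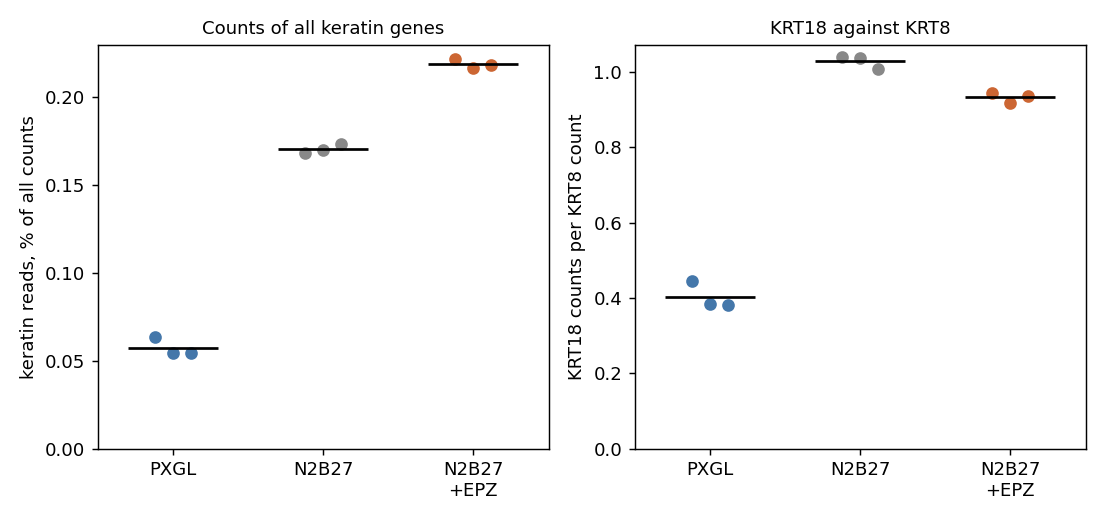
Left, counts of all keratin genes as a percentage of each library's counts; right, KRT18 counts per KRT8 count; points are libraries and bars the means of 3. The keratin share rose from PXGL (0.0544% to 0.0634%) to N2B27 and again with EPZ-6438 (0.217% to 0.222%), while the ratio was highest in N2B27 alone.

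To compare levels between genes, CPM was divided by the length of each gene's principal transcript in kilobases. In PXGL the order began with KRT8 at 159 CPM per kb, then KRT18 at 87.6, KRT19 at 57.3 and TFAP2C at 31.2. In N2B27 KRT18 led with 539 CPM per kb, above KRT8 with 385, KRT19 with 46.9 and TFAP2C with 29.2. With EPZ-6438 the levels per kb were 647 for KRT18, 509 for KRT8, 54.7 for KRT19 and 26.7 for TFAP2C. With this length, these steps were larger than the spread between libraries. When all annotated exons set the length, KRT8 (49.0), KRT18 (42.5) and KRT19 (34.1 CPM per kb) in PXGL each overlapped the next over libraries. Within each PXGL library the order was still KRT8, KRT18, KRT19, and replicate 1 was the highest for each. KRT19 and TFAP2C (both 27.9 CPM per kb) in N2B27 were not separated. The other 5 detected genes lay at or below 3.82 ± 0.764 CPM per kb (KRT7 with EPZ-6438). Among them TFAP2A (0.745 ± 0.495), CDX2 (0.603 ± 0.112) and GATA2 (0.459 ± 0.199 CPM per kb) were not separated beyond their spread with EPZ-6438, and their order depended on the length used.

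The relatives of the factors divided in the same comparison. Among the GATA genes, which recognise a shared core sequence, GATA6, a hypoblast factor, rose 10.8-fold with EPZ-6438 over N2B27 (0.731 to 7.97 CPM on average, edgeR adjusted p = 3.34e-07). GATA4, another endoderm factor, rose 1.62-fold (14.0 to 22.7 CPM, edgeR adjusted p = 0.000224). GATA5 averaged 1.06 CPM in N2B27 and 0.709 CPM with the inhibitor (edgeR adjusted p = 0.372), and GATA1, the erythroid factor, had 0 counts throughout. CDX1 rose 4.44-fold (2.95 ± 0.768 to 13.1 ± 0.935 CPM, edgeR adjusted p = 4.27e-07), and CDX4, with 5, 6 and 1 counts in the 3 groups, was not tested.

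Of the other AP-2 genes, TFAP2E, at 3.47 ± 0.535 CPM in PXGL and 0.963 ± 0.434 in N2B27, fell 3.58-fold on leaving PXGL (edgeR adjusted p = 0.000224) and averaged 1.33 ± 0.232 CPM with EPZ-6438 (edgeR adjusted p = 0.409 against N2B27). TFAP2B averaged 0.129, 0.254 and 0.420 CPM in PXGL, N2B27 and EPZ-6438 and was below the filter, as was TFAP2D with 1 count in all. Of the TEAD factors and their VGLL cofactors, 6 were tested: VGLL3 rose 2.14-fold (2.40 ± 0.524 to 5.13 ± 1.14 CPM, edgeR adjusted p = 0.0159). TEAD4, a TEAD factor required for trophectoderm in mouse, fell 1.31-fold (176 ± 6.36 to 134 ± 1.03 CPM, edgeR adjusted p = 0.000285). VGLL4 fell 1.25-fold (43.9 to 35.0 CPM, edgeR adjusted p = 0.00851) and TEAD2 1.26-fold (40.9 to 32.4 CPM, edgeR adjusted p = 0.013). TEAD1 (54.6 and 68.4 CPM, edgeR adjusted p = 0.0716) and TEAD3 (10.8 and 8.44 CPM, edgeR adjusted p = 0.135) did not pass.

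Among 27 other regulators of trophectoderm and trophoblast, 23 were tested, and with EPZ-6438 12 rose, 1 fell (TEAD4) and 10 did not pass. Over all genes, 14.2% were higher and 10.6% lower. The 23 had a median log2 fold change of 0.53, against 0.01 over all genes. HAND1, a bHLH factor of trophoblast and of mesoderm, rose 4.06-fold (4.63 ± 0.455 to 18.9 ± 2.78 CPM, edgeR adjusted p = 1.05e-06). ELF3, an epithelial ETS factor, rose 1.67-fold (41.5 ± 2.40 to 69.1 ± 4.98 CPM, edgeR adjusted p = 1.77e-06), below its PXGL level of 159 ± 5.20 CPM. ID2, an inhibitor of bHLH factors, rose 5.47-fold (1.34 ± 0.618 to 7.35 ± 1.21 CPM, edgeR adjusted p = 1.67e-05) and SP6 rose 2.58-fold (2.38 ± 0.211 to 6.15 ± 0.401 CPM, edgeR adjusted p = 7.13e-05). ELF5, a factor of trophoblast stem cells, had 0 counts in every library. From PXGL to N2B27, 6 of the 23 rose, 10 fell and 7 did not pass, beside 27.3% of all genes higher and 28.7% lower, so the share that rose was near the background.

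Of 20 genes of the trophectoderm epithelium (junctions, channels and surface proteins), 19 were tested and 5 rose, 3 fell and 11 did not pass with EPZ-6438, beside 14.2% higher and 10.6% lower over all genes, with a median log2 fold change of 0.12. EGFR rose 2.75-fold (5.52 ± 0.825 to 15.2 ± 1.30 CPM, edgeR adjusted p = 4.26e-06), AQP3, a water and glycerol channel, rose 2.50-fold (4.59 ± 1.18 to 11.5 ± 0.328 CPM, edgeR adjusted p = 1.29e-05) and ITGA6 rose 1.26-fold (183 ± 2.04 to 230 ± 11.9 CPM, edgeR adjusted p = 0.0011). Of 17 genes of desmosomes, the junctions that anchor keratin, 14 were tested: 5 rose, 1 fell and 8 did not pass, beside the same shares, with a median of 0.11. Most tested genes of both lists did not pass, and those named are the ones with the smallest adjusted p. The desmosomal cadherin DSC2 rose 1.81-fold (56.2 ± 4.77 to 102 ± 1.98 CPM, edgeR adjusted p = 2.03e-07) and DSP, the plaque protein that binds keratin filaments, rose 1.53-fold (289 ± 11.2 to 442 ± 12.3 CPM, edgeR adjusted p = 0.00091), while PPL fell 1.70-fold (33.3 ± 5.37 to 19.6 ± 0.915 CPM, edgeR adjusted p = 0.000499).

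Of 13 other intermediate filament genes, 12 were tested with EPZ-6438 against N2B27: 5 rose, 0 fell and 7 did not pass, beside 14.2% higher and 10.6% lower over all genes. Their median log2 fold change was 0.36. NEFL, a neurofilament chain, rose 2.71-fold with EPZ-6438 (56.0 ± 3.53 to 152 ± 2.99 CPM, edgeR adjusted p = 2.73e-10). VIM, the filament of mesenchymal cells, rose 1.40-fold (39.5 ± 4.43 to 55.1 ± 2.06 CPM, edgeR adjusted p = 0.00156), after a 9.59-fold rise from 4.11 ± 0.596 CPM in PXGL (edgeR adjusted p = 1.47e-12).

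Products of later trophoblast were mostly below detection: of 28, 20 did not pass the filter, and CGA, CGB3, HSD3B1, INSL4 and XAGE3 had 0 counts in all 9 libraries. With EPZ-6438 against N2B27, 3 of the 8 tested rose and 1 fell, beside 14.2% of all genes higher and 10.6% lower. PGF, a placental growth factor, rose 1.66-fold (5.71 ± 0.157 to 9.50 ± 0.498 CPM, edgeR adjusted p = 0.00325), and ERVW-1, the syncytin gene, rose 1.48-fold (3.41 ± 0.337 to 5.07 ± 0.0841 CPM, edgeR adjusted p = 0.014). CSH1, a placental lactogen with near-identical copies whose reads may have been split by the counting, fell 1.83-fold (5.14 ± 1.03 to 2.81 ± 0.383 CPM, edgeR adjusted p = 0.0243). In PXGL it had 0 counts, so its mean was above the PXGL level both with and without EPZ-6438 in N2B27. From PXGL to N2B27, 3 of the 8 rose and 5 fell, beside 27.3% of all genes higher and 28.7% lower. With 0 PXGL counts, CSH1, among these 3, could pass the filter only through the N2B27 and EPZ-6438 groups. Its difference from PXGL was thus built into its being tested.

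**Figure D4:**
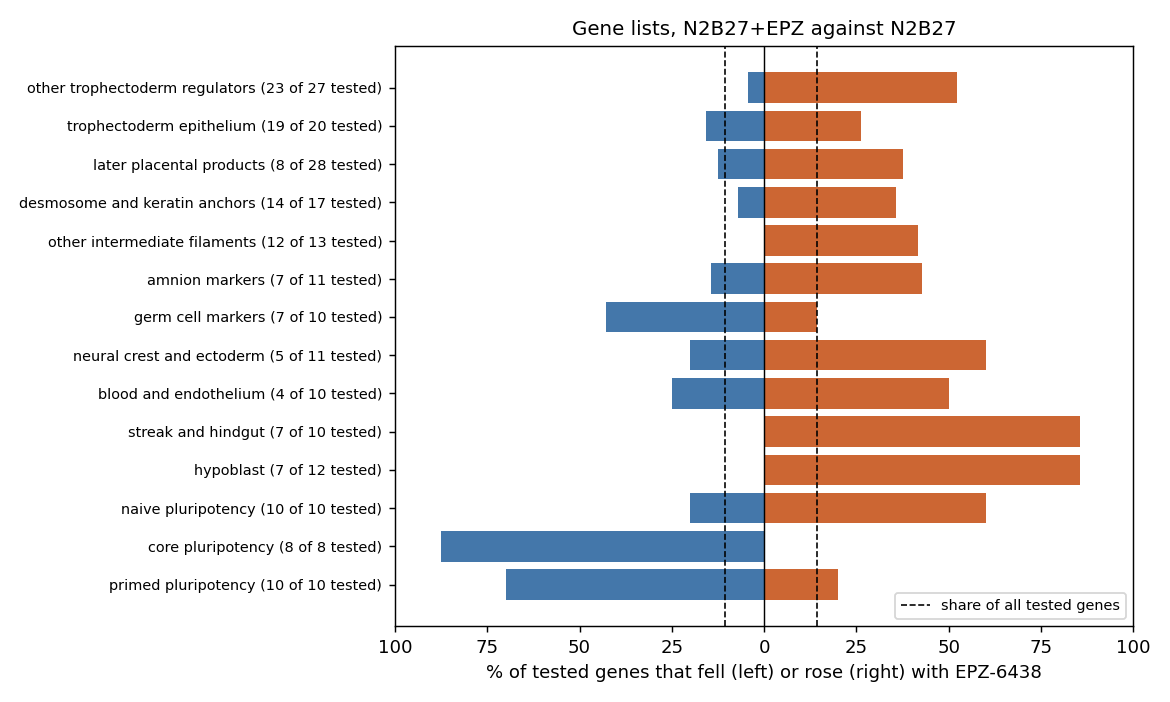
Bars give the percentage of each list's tested genes that fell (left) or rose (right) with EPZ-6438 against N2B27, and dashed lines the shares of all tested genes (10.6% lower, 14.2% higher). Trophectoderm regulators reached 12 of 23 to the right, streak and hindgut markers and hypoblast markers 6 of 7 each, and core pluripotency markers 7 of 8 to the left.

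Each factor also belongs to other cell types, whose markers moved as follows, with summed levels over the whole list per library. Their counts with EPZ-6438 against N2B27 stand beside 14.2% of all tested genes higher and 10.6% lower. Some genes are in more than 1 list, so the counts and sums are not independent. FOXA2 is a streak and hypoblast marker here, and SOX17 a germ cell and hypoblast marker. TFCP2L1 is in the germ cell and naive lists, and TFAP2B in the amnion and neural crest lists. CDX1, GATA4 and GATA6, described above, are included again. Primitive streak and hindgut markers, which share CDX2, summed to 26.7 to 31.5 CPM in N2B27 and 165 to 178 CPM with EPZ-6438, and 6 of 7 tested rose. TBXT averaged 5.81 and 65.7 CPM and MIXL1 13.1 and 65.3 CPM. Hypoblast markers summed to 389.7 to 402 CPM and 646 to 668 CPM, and 6 of 7 tested rose, with APOA1 and TTR at 0 in every library. Amnion markers, a tissue that expresses GATA3 and TFAP2A, summed to 47.3 to 49.4 CPM and 58.8 to 59.8 CPM: 3 of 7 tested rose and 1 fell, with VTCN1 at 0. MSX1, among these 7, passed the low-count filter through the EPZ-6438 group alone, so a difference was built into its being tested. ISL1, an amnion and mesoderm factor, rose 3.25-fold (1.22 to 3.98 CPM, edgeR adjusted p = 7.64e-05).

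Neural crest and ectoderm markers, which share TFAP2A, summed to 33.3 to 38.7 CPM in N2B27 and 40.1 to 47.3 CPM with EPZ-6438, and 3 of 5 tested rose and 1 fell. This count and the later ones with EPZ-6438 against N2B27 stand beside 14.2% of all tested genes higher and 10.6% lower. Blood and endothelial markers, which share GATA2, summed to 38.9 to 41.6 CPM and 56.0 to 59.0 CPM, and 2 of 4 tested rose and 1 fell. Germ cell markers, which share TFAP2C, summed to 433 to 443 CPM and 347 to 384 CPM: 1 of 7 tested rose (PRDM1, 2.91-fold, edgeR adjusted p = 1.16e-07) and 3 fell. The median log2 fold change of these 7 was -0.26, so PRDM1 went against the list as a whole. Core pluripotency markers summed to 5742 to 5842 CPM in N2B27 and 4705 to 4750.2 CPM with EPZ-6438, and 7 of 8 fell. Naive markers summed to 3180 to 3699 CPM in PXGL, 2407 to 2419 CPM in N2B27 and 2629 to 2687 CPM with EPZ-6438. From PXGL to N2B27 6 of these 10 fell and 0 rose, beside 28.7% and 27.3% of all genes, and with the inhibitor 6 rose and 2 fell. KLF17, a naive factor, averaged 58.0, 57.7 and 74.2 CPM. Primed markers summed to 98.2 to 101.3 CPM, 1029.9 to 1036 CPM and 525 to 530.4 CPM in the same order. On leaving PXGL 9 of 10 rose and 1 fell, beside 27.3% of all genes higher and 28.7% lower. With the inhibitor 2 rose and 7 fell. The part of these cell types in the values of the 10 genes was not tested.

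For each tested gene, the 2 other genes with the most similar profile were taken by Pearson correlation of log2 CPM over the 9 libraries, among 10536 candidates. Since the 9 libraries form 3 groups, high values mainly say that the group means have the same shape, and they are given as a description. CDX2 was most like MBNL3 (r = 0.994; 12.8, 6.21 and 26.8 CPM in PXGL, N2B27 and EPZ-6438) and CCDC142 (r = 0.988). GATA3 was most like TACC1 (r = 0.983) and ATP12A (r = 0.978; 46.2, 28.9 and 167 CPM). TFAP2A was most like CHIC2 (r = 0.991) and PHACTR1 (r = 0.979; 27.7, 15.3 and 25.2 CPM), which are also lowest in N2B27. The closest profiles were ETV6 (r = 0.929) and PROSER2 (r = 0.912) for GATA2, and GALNT12 (r = 0.978) and TPCN2 (r = 0.977) for TFAP2C.

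Among the keratins, KRT18 was most like LOXL3 (r = 0.999; 4.44, 20.9 and 24.2 CPM) and TUBB2A (r = 0.998), and KRT8 was most like SERPINE2 (r = 0.997; 19.5, 78.0 and 128 CPM) and FLRT2 (r = 0.996). KRT7 was closest to NBEA (r = 0.995) and MAML3 (r = 0.994), and KRT19 to DHRSX (r = 0.977) and RPL17 (r = 0.961; 775, 653 and 724 CPM), a ribosomal protein gene. No keratin was among the 2 closest profiles of another.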

How the data were processed

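RNA-seq of 9 H1 libraries, 3 per group, was analysed. The authors deposited 1 table of expected counts per gene symbol, most of them whole numbers, with 7.13% to 8.09% of a library's values not whole. Per the labels' protocols, libraries were made with an rRNA depletion kit, while another label names polyA RNA. Trim Galore, STAR 2.7.6a, DESeq2 and hg38 are named in the submitters' processing notes, and no source used here names the counting tool or its strand setting. Reads without molecular identifiers are not independent molecules, so intervals and floors cover counting error only.

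The deposited expected counts were rounded to whole numbers. Genes were kept by filterByExpr (15179 of 40332), scaled by TMM and fitted in edgeR 4.0.16 (R 4.3.3) with robust quasi-likelihood dispersion over all 9 libraries, 1 term per group. A gene was called at a Benjamini-Hochberg adjusted p under 0.05 over all genes tested. SE is the size of the log2 fold change divided by the root of the test statistic F. A floor of 3 counts stood for 0.164 to 0.211 CPM per library. Gene positions are from GENCODE 29 (GRCh38), and promoter windows from RefSeq (GRCh38.p14).

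The 10 genes and all gene lists were chosen with earlier results of these data known. Named genes are the 10, up to 4 tested genes per list with the smallest adjusted p for EPZ-6438 against N2B27, their family members, the keratins past the filter and the 2 most similar profiles of each. Alternatives were DESeq2 1.42.0 and its size factors, other filters, only 2 groups in a fit, a test against a 1.5-fold change, a replicate block, added pseudogene counts and leaving out each library. The code was tested on simulated data.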

Additional observations from a re-analysis of the deposited data

How the results depend on the processing

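Over the alternatives run, 431 values of the 10 genes kept their direction and side of the threshold, 20 lost the call, 4 gained it and 1 reversed: KRT19 with EPZ-6438 against PXGL, at a log2 difference of 0.0352 without PXGL replicate 1 and -0.1152 to 0.0352 with any 1 library left out. With EPZ-6438 against N2B27, 3752 genes were called, 5660 with only the 2 groups fitted, 724 against a 1.5-fold change and 2752 to 5702 with 1 library left out, the highest without PXGL replicate 1, a library in neither group. Of the 10 genes, 3 were called there against a 1.5-fold change and 4 to 6 with 1 library left out. From PXGL to N2B27 the calls were 8505, 2956 against a 1.5-fold change and 7605 to 9428 with 1 library left out (6 to 7 of the 10 genes). Between EPZ-6438 and PXGL they were 8515, 2928 and 7567 to 9361 (6 to 8 of the 10 genes). A stricter filter, 1 CPM in 3 libraries, left GATA2 untested. Depth limits CDX2 and TFAP2A in N2B27, which rest on 2 and 7 counts.

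Replicate numbers did not pair the libraries: deviations of same-numbered libraries correlated at -0.0256 to 0.0369, those of other pairs at -0.0472 to 0.0241, and 4 of 9 libraries correlated best with their own number. With the replicate block, 3696, 8507 and 8489 genes were called with EPZ-6438 against N2B27, N2B27 against PXGL and EPZ-6438 against PXGL, and 5, 7 and 6 of the 10 genes. GATA2 against PXGL was the call lost (edgeR adjusted p = 0.0504, range over alternatives 0.00974 to 0.174).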

Other observations

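Some markers of trophoblast and other tissues rested on few counts, and NR2F2, KRT17 and KRT80 lay below the filter and entered no comparison. NR2F2, a nuclear receptor of trophoblast and of mesenchyme, had 7 counts in PXGL, 1 in N2B27 and 42 with EPZ-6438, which is 39.7 times the N2B27 level by counts, with an exact 95% interval of 6.75 to 1605 for counting error only. KRT17, an acidic keratin of stressed and embryonic epithelia, had 0, 4 and 21 counts in the same order, and the inhibitor group was 4.96 times N2B27 (interval 1.67 to 19.9). KRT80 had 0, 12 and 5 counts. MSX1, a homeobox factor of amnion and mesoderm, had 4, 2 and 46 counts, a ratio of 21.7 to N2B27 (interval 5.69 to 185). It passed the filter through the EPZ-6438 group alone, so a difference was built into its being tested.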
